A study of Mus musculus with 36 samples.

Results

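The genes described here are the 10 members of the AP-1 and small Maf group whose symbols are Fos, Fosb, Fosl1, Fosl2, Jun, Junb, Jund, Atf3, Maff and Mafk, picked by name out of the 22761 genes of the normalised table. Their levels were measured by RNA sequencing in 36 samples of mouse kidney progenitors, 4 in each of 9 groups. Nephron progenitors (NP), stromal progenitors (SP) and ureteric bud (UB) were sorted from CD1 mouse kidneys at embryonic day (E) 11.5 and at E12.5, and these 6 groups are called ex fetu. The other 3 groups were differentiated from mouse embryonic stem cells (mESC) in embryoid bodies and then sorted: induced NP (iNP) and induced SP (iSP) from the E14 line, and ureteric bud cells (iUB) from a line labelled Sox9-mCherry. The study's methods call the mCherry line Sox9 in some places and Sox8 in others, so the reporter behind the iUB gate is uncertain.

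An ex-fetu sample is a pool of kidneys from the whole litter of 1 mouse. An mESC-derived sample is the embryoid bodies of a single differentiation batch. NP and iNP were gated as ITGA8 high and PDGFRA low, SP and iSP as ITGA8 low and PDGFRA high, all after removal of CD31+ and of EpCAM+ or RET+ cells. UB was gated as RET+ and EpCAM+, and iUB as EpCAM+ and mCherry+. Embryonic kidneys were used fresh or after cold storage, with the ureter taken off. The iNP and iSP medium sequence contained Activin A, BMP4, retinoic acid, FGF9, the GSK3 inhibitor CHIR99021 and the ROCK inhibitor Y27632, and that of iUB contained these with GDNF, the TGF-β receptor inhibitor SB431542 and Matrigel. Strain, culture and embryo therefore cannot be told apart in any comparison of mESC-derived with ex-fetu cells, and iUB also came from another line than iNP and iSP.

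AP-1 is a family of dimers of basic leucine zipper proteins. FOS proteins bind DNA only with a JUN partner, whereas JUN proteins can also pair with each other and with ATF3. Fos, Fosb, Jun, Junb and Atf3 are immediate early genes: growth factors, stress and tissue handling raise their transcripts quickly through MAP kinases, serum response factor and CREB, and the transcripts are short-lived. MAFF and MAFK are small Maf proteins, which lack a transactivation domain and act with NRF2, BACH1 and other partners at antioxidant response elements.

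Promoters are shown for 5 members that differed between mESC-derived and E11.5 cells, chosen after their values were seen: Fos and Fosb, called higher in all 3 types, Junb, called higher in iNP and iUB, and Atf3 and Maff, called lower in iSP and iNP. RefSeq starts on GRCm38.p6 matched 9 of the 10 members, Fosl1 being the exception, and Maff had 3 starts, of which only the second, the one with the longest motif match, is shown. Each line gives the 250 bases before the start on the gene's strand, 5′ to 3′, and capitals mark letters of the motifs searched. The windows are chr12:85473640-85473889 (+ strand) for Fos, chr7:19310046-19310295 (− strand) for Fosb, chr8:84978749-84978998 (− strand) for Junb, chr1:191183334-191183583 (− strand) for Atf3 and chr15:79347270-79347519 (+ strand) for Maff.
Fos: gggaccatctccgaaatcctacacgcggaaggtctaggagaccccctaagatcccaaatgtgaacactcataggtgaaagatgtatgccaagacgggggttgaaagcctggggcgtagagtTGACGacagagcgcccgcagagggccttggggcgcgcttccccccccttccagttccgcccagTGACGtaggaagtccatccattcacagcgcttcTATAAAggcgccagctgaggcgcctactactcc
Fosb: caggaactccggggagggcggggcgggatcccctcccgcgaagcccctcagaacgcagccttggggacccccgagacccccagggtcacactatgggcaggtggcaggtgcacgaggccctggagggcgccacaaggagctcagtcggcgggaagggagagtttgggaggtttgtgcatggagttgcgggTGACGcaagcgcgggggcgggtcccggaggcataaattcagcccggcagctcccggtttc
Junb: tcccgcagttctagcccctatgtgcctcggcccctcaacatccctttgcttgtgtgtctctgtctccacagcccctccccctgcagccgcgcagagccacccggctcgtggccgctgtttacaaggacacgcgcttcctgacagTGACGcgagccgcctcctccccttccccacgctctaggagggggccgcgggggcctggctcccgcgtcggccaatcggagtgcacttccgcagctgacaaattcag
Atf3: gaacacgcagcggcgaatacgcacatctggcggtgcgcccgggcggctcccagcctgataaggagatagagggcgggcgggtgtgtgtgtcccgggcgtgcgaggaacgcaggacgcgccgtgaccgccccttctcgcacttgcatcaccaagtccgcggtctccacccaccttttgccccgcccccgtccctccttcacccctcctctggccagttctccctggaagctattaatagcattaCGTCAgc
Maff: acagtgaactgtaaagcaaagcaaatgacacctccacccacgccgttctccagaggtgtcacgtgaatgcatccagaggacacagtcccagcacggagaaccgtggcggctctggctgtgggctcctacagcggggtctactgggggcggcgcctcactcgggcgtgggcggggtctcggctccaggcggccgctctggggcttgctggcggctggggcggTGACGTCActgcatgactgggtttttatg
The motifs searched on both strands were the AP-1 element TGANTCA, the full cyclic AMP response element TGACGTCA, its shorter form TGACG (which lies within the full form), the CArG box bound by serum response factor, and TATAAA. Among all 32841 promoters of this length they were present in 6.751%, 1.547%, 17.77%, 1.468% and 12.37%, in that order. Of the 9 members with a promoter, 6 held TGACG on either strand (Fos, Fosb, Junb, Atf3, Maff and Mafk). The windows of Fosl2, Jun and Jund, not shown, held none of the motifs. Those genes and Mafk were also called lower in iSP and iNP, as Atf3 and Maff were. Fos held TGACG at −129 to −125 and at −66 to −62, counted back from the start, and Maff held the full TGACGTCA at −29 to −22 of the start shown. The window of its first start, where the annotated gene begins, held none of the motifs, and that of the last start held CGTCA at −122 to −118. In Atf3 the letters were read on the opposite strand, as CGTCA at −7 to −3. TATAAA was found in Fos alone among the members, and TGANTCA and the CArG box in none of these windows, which says only that these letters are not in the 250 bases read. The window read for Jund ends at 70697738, upstream of the annotated gene, which begins at 70698949. Those of Fosl2 and Atf3 lie inside their annotated genes.

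Values are CPM, the reads on a gene relative to those of the library, scaled by the authors' edgeR factors (here normalised CPM). Between 13.004 M and 52.5 M reads per library lay on genes, so 3 reads were worth 0.0605 to 0.223 normalised CPM. Fosl1 was the only member near the floor of 3 reads. Markers of the labelled cell type were all present at a mean of at least 1 in its own groups. The summed level of 7 NP markers was 1593 to 2677 in ex-fetu NP and 721 to 1104 in iNP. That of 6 SP markers was 3323 to 6726 in ex-fetu SP and 2871 to 3064 in iSP. That of 7 UB markers was 1729 to 3240.1 in ex-fetu UB and 2724 to 2925 in iUB. The cell source label of the UB samples gives the other age than their title, and the title was followed here. The library numbered 1 in each E12.5 group stood apart: 3.89% (NP), 4.07% (SP) and 4.405% (UB) of genes lay more than 1 above the mean of the other libraries on the log2 scale, against at most 1.41% in any other library. More genes lay low in some libraries: the share more than 1 below the mean of the others was 6.67% in iNP 2, 5.08% in iUB 1, 4.92% in E12.5 SP 1, 4.77% in E12.5 NP 2 and 3.97% in E11.5 SP 4, and at most 2.498% in the rest. Many of the calls that changed with a single library are given beside the comparisons they belong to. The SP and NP libraries numbered 1 were the highest of their group for all 10 members. The tests between groups that include E12.5 cells were therefore run with and without that library, while group levels and shares per kb include it unless stated. In sorted bulk samples, fewer expressing cells and less RNA per cell cannot be told apart.

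Against E11.5 cells of the same type, the members did not move together. Fos and Fosb, the 2 rapidly induced Fos genes, were higher in all 3 mESC-derived groups. Atf3, Maff, Mafk, Fosl2, Jun and Jund were lower in iSP and iNP, and Fosl1, at a handful of reads there, was also called lower. In iUB those genes were near the E11.5 level or above it, apart from Fosl1, which was lower. In limma's test on log2(normalised CPM + 1) with adjustment over all genes tested, 2 members were called higher and 7 lower in iSP, where 35.5% of all tested genes were called higher and 32.1% lower. For iNP the counts were 3 and 7 (background 35.5% and 29.2%), and for iUB 5 and 1 (background 32.1% and 28.5%). Taken either way, the share of members called in iUB was near that of all genes. The median log2 difference of the 10 members was -2.07 in SP, -1.202 in NP and 0.53 in UB, beside 0.037, 0.074 and 0.025 over all tested genes. Below, a difference is always on the log2(normalised CPM + 1) scale, given ± its standard error, and a level is in normalised CPM, given ± SD over 4 libraries.

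**Figure D1:**
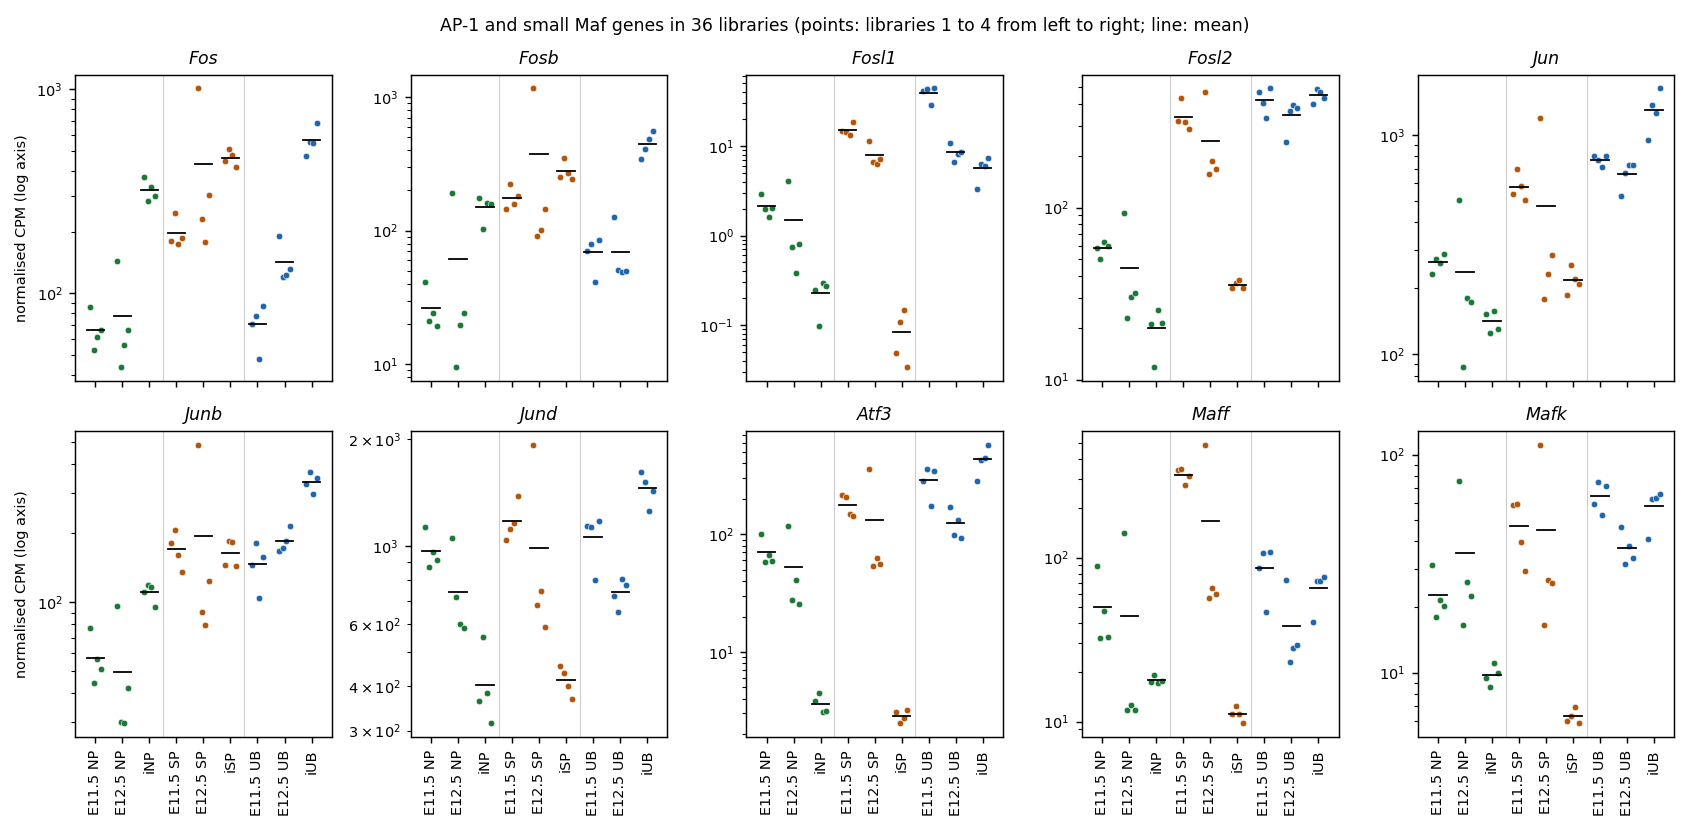
Level of each of the 10 genes in normalised CPM (log axis, which differs between panels) in the 9 groups. Points are the 4 libraries numbered 1 to 4 from left to right and the line is their mean. Fos and Fosb are highest in iUB by their mean, Atf3 falls to a mean of 2.88 in iSP and 3.63 in iNP, and library 1 is the top point of E12.5 NP and E12.5 SP in every panel.

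Fos (ENSMUSG00000021250, GRCm38 chromosome 12, 85473890 to 85477273, + strand) encodes the founding FOS protein, which is rapidly induced through the serum response. In SP the 4 libraries held 181, 248, 175 and 187 at E11.5, 1009, 231, 179.6 and 302 at E12.5 and 444, 508, 474 and 415 in iSP. In NP they held 85.9, 52.7, 61.4 and 66.1 at E11.5, 145, 43.6, 55.9 and 66.6 at E12.5 and 370.5, 283, 331 and 301 in iNP. In UB they held 70.8, 77.6, 47.6 and 87.1 at E11.5, 192, 120.0, 124 and 132 at E12.5 and 471, 549, 546 and 681 in iUB. All 4 libraries of each mESC-derived group lay above all 4 of the E11.5 group of the same type. The rise of the mean was 2.33-fold in iSP (difference 1.22 ± 0.12, limma adjusted p = 1.67e-05). It was 4.83-fold in iNP (difference 2.27 ± 0.15, limma adjusted p = 1.55e-06). It was 7.94-fold in iUB (difference 2.99 ± 0.18, limma adjusted p = 7.45e-07). From highest to lowest mean, the groups were iUB (562 ± 87.1), iSP (460.3 ± 40.03), E12.5 SP (430.4 ± 389), iNP (321 ± 38.3), E11.5 SP (198 ± 33.5), E12.5 UB (142 ± 33.6), E12.5 NP (77.7 ± 45.7), E11.5 UB (70.8 ± 16.8) and E11.5 NP (66.5 ± 14.1). Only iNP and E11.5 SP had separate ranges among neighbours in this order. The broad SD of E12.5 SP came from library 1 at 1009, the highest value of Fos in any library. Without library 1, the E12.5 means were 238 in SP, 55.3 in NP and 125.3 in UB.

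Fosb (chromosome 7, 19302696 to 19310051, − strand) is the other quickly induced Fos gene. Its 4 SP libraries held 145, 225, 157 and 180.3 at E11.5, 1158, 90.97, 101 and 145 at E12.5 and 251, 352, 268 and 243 in iSP. Its NP libraries held 41.3, 20.9, 24.3 and 19.4 at E11.5, 193, 9.51, 19.7 and 24.1 at E12.5 and 176, 102, 161 and 158 in iNP. Its UB libraries held 70.05, 79.995, 40.9 and 84.6 at E11.5, 127, 51.1, 48.7 and 49.9 at E12.5 and 346, 409, 483 and 552 in iUB. Fosb was higher in every mESC-derived group than in its E11.5 group, as Fos was, and none of these 3 pairs of groups overlapped. The rise was 1.57-fold in iSP (difference 0.66 ± 0.16, limma adjusted p = 0.00462). In iNP the rise was 5.64-fold (difference 2.49 ± 0.24, limma adjusted p = 1.76e-05). In iUB the rise was 6.497-fold (difference 2.71 ± 0.22, limma adjusted p = 5.55e-06). The call in iSP was lost when all 36 samples shared a single estimate of the spread (0.66, limma adjusted p = 0.354). The order of means was iUB (448 ± 89.3), E12.5 SP (374 ± 523), iSP (278 ± 49.9), E11.5 SP (177 ± 35.4), iNP (149 ± 32.5), E12.5 UB (69.1 ± 38.3), E11.5 UB (68.9 ± 19.6), E12.5 NP (61.5 ± 87.6) and E11.5 NP (26.5 ± 10.1), and only iSP and E11.5 SP had separate ranges among neighbours. Over libraries 2 to 4 alone, E12.5 SP had a mean of 112, E12.5 NP 17.8 and E12.5 UB 49.9. The second place of E12.5 SP thus rested on library 1.

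Fosl1 (chromosome 19, 5447547 to 5455946, + strand) encodes FRA1, a FOS protein without the C-terminal transactivation domain. Per kb of exon it had the lowest level of the members in every group but E11.5 UB, where Mafk and Fosb lay below it. The UB libraries held 41.3, 42.9, 28.5 and 43.9 at E11.5, 10.7, 6.67, 8.18 and 8.596 at E12.5 and 3.27, 6.32, 6.01 and 7.26 in iUB. The SP libraries held 14.7, 14.2, 13.2 and 18.4 at E11.5, 11.4, 6.61, 6.36 and 7.204 at E12.5 and 0.0483, 0.107, 0.148 and 0.0338 in iSP. The NP libraries held 2.88, 1.98, 1.62 and 2.02 at E11.5, 4.09, 0.736, 0.385 and 0.798 at E12.5 and 0.246, 0.0984, 0.293 and 0.273 in iNP. In iSP this was 1 to 4 reads per library and in iNP 3 to 12, with 2 libraries under the floor of 3 reads, so that no fold is given for these groups. The log2 difference from E11.5 was -3.89 ± 0.12 (limma adjusted p = 2.76e-08) for iSP. For iNP it was -1.34 ± 0.14 (limma adjusted p = 2.17e-05). Both depend on the pseudocount of 1. In iUB the gene was read well and lay 6.85-fold below E11.5 UB (difference -2.602 ± 0.21, limma adjusted p = 5.18e-06), with no overlap. E11.5 UB was the highest group and E11.5 SP the second, each separate in range from the next. The order of means was E11.5 UB (39.1 ± 7.19), E11.5 SP (15.1 ± 2.25), E12.5 UB (8.53 ± 1.65), E12.5 SP (7.901 ± 2.38), iUB (5.71 ± 1.72), E11.5 NP (2.13 ± 0.536), E12.5 NP (1.503 ± 1.74), iNP (0.228 ± 0.0883) and iSP (0.0843 ± 0.0529). Ranges also separated between iUB and E11.5 NP and between E12.5 NP and iNP. Without library 1, the E12.5 means were 6.72 in SP, 0.639 in NP and 7.82 in UB. Of the 2033 exon bases of Fosl1, 1163 overlap Ccdc85b on the opposite strand, and whether the counting used strand is not given in the sources used here. Ccdc85b had a mean of 32.9 in iSP and 42.3 in iNP, where Fosl1 had its lowest levels.

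Fosl2 (chromosome 5, 32135801 to 32157842, + strand) encodes FRA2, likewise without that domain. Its libraries ranged from 286 to 434 at E11.5, 157 to 468 at E12.5 and 33.99 to 37.8 in iSP in the SP lineage, from 50.3 to 63.1 at E11.5, 22.9 to 93.5 at E12.5 and 11.8 to 25.2 in iNP in NP, and from 332 to 493 at E11.5, 239 to 397 at E12.5 and 402 to 492 in iUB in UB. The UB groups and ex-fetu SP were thus high, and both iSP and iNP low. The mean of iSP lay 9.47-fold under that of E11.5 SP (difference -3.19 ± 0.12, limma adjusted p = 9.51e-08). The mean of iNP lay 2.91-fold under that of E11.5 NP (difference -1.54 ± 0.20, limma adjusted p = 0.000114). In iUB the level could not be told from E11.5 UB (difference 0.095 ± 0.13, limma adjusted p = 0.544). Means ran in the order iUB (449.7 ± 40.1), E11.5 UB (425 ± 71.9), E12.5 UB (345 ± 71.4), E11.5 SP (338 ± 65.5), E12.5 SP (245 ± 149), E11.5 NP (57.9 ± 5.47), E12.5 NP (44.6 ± 32.8), iSP (35.7 ± 1.82) and iNP (19.9 ± 5.72). Among neighbours, E12.5 SP and E11.5 NP had separate ranges, as had iSP and iNP. Over libraries 2 to 4 alone, E12.5 SP had a mean of 170.2, E12.5 NP 28.4 and E12.5 UB 379.7.

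Jun (chromosome 4, 95049034 to 95052222, − strand), the main JUN partner of FOS, ranged from 505 to 697 at E11.5, 179 to 1197 at E12.5 and 187 to 256 in iSP in SP, from 232 to 287 at E11.5, 87.4 to 503 at E12.5 and 126 to 158 in iNP in NP and from 716 to 797 at E11.5, 528 to 728 at E12.5 and 943 to 1624 in iUB in UB. It was lower in iSP than in E11.5 SP (difference -1.41 ± 0.13, limma adjusted p = 9.27e-06). It was also lower in iNP than in E11.5 NP (difference -0.89 ± 0.11, limma adjusted p = 6.59e-05). In iUB it was higher than in E11.5 UB (difference 0.73 ± 0.15, limma adjusted p = 0.001797). None of these pairs overlapped. The iUB call was lost when all 36 samples shared 1 estimate of the spread (limma adjusted p = 0.105). By mean the groups were iUB (1296 ± 282), E11.5 UB (769 ± 38.3), E12.5 UB (664 ± 94.5), E11.5 SP (581 ± 83.4), E12.5 SP (473 ± 485), E11.5 NP (263 ± 23.2), E12.5 NP (236 ± 183), iSP (218 ± 28.8) and iNP (142 ± 16.02). The iUB range stood clear of the next group, E11.5 UB, and iSP stood clear of iNP. Without library 1, the E12.5 means were 232 in SP, 147 in NP and 709 in UB. An exon overlap of 232 bases with Junos on the opposite strand leaves some reads of uncertain origin, with Junos at a group mean of at most 3.52.

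Junb (chromosome 8, 84974484 to 84978718, − strand) encodes a JUN protein with weaker transactivation, induced together with Fos. Its SP libraries held 181, 207, 161 and 136 at E11.5, 488, 90.2, 79.6 and 124 at E12.5 and 146, 185, 184 and 144 in iSP. Its NP libraries held 76.96, 44.3, 56.6 and 50.9 at E11.5, 96.7, 29.8, 29.5 and 42.2 at E12.5 and 111, 119, 117 and 95.7 in iNP. Its UB libraries held 146, 181, 104 and 158 at E11.5, 168, 173, 186 and 216 at E12.5 and 327, 370.5, 296 and 350.2 in iUB. Relative to E11.5, Junb rose in iNP (difference 0.97 ± 0.16, limma adjusted p = 0.000489) with separate ranges. It rose likewise in iUB (difference 1.21 ± 0.15, limma adjusted p = 9.59e-05). In SP the mESC-derived and E11.5 libraries overlapped (difference -0.050 ± 0.14, limma adjusted p = 0.773). The sign of that last difference was positive when each library was scaled to the same total (0.035) and under quantile normalisation (0.18). Ordered by mean, the groups were iUB (336 ± 31.8), E12.5 SP (196 ± 196), E12.5 UB (186 ± 21.3), E11.5 SP (171 ± 30.1), iSP (165 ± 23.1), E11.5 UB (147 ± 32.3), iNP (111 ± 10.6), E11.5 NP (57.2 ± 14.1) and E12.5 NP (49.6 ± 31.96), with iNP and E11.5 NP the only neighbours that did not overlap. Over libraries 2 to 4 alone, E12.5 SP had a mean of 97.97, E12.5 NP 33.9 and E12.5 UB 191. Junb shares 173 exon bases with the more abundant Prdx2 on the opposite strand, whose group means lay between 427 and 583.

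Jund (chromosome 8, 70698949 to 70700616, + strand), the JUN gene with the most constant expression in most tissues, ranged from 1037 to 1379.8 at E11.5, 588 to 1932 at E12.5 and 368 to 458 in iSP in SP, from 871 to 1127 at E11.5, 585 to 1049 at E12.5 and 315 to 551 in iNP in NP and from 801 to 1172 at E11.5, 651 to 804 at E12.5 and 1255 to 1613 in iUB in UB. Against E11.5 it was 2.82-fold lower in iSP (difference -1.49 ± 0.11, limma adjusted p = 3.22e-06). It was 2.402-fold lower in iNP (difference -1.29 ± 0.17, limma adjusted p = 0.000105). In iUB it was 1.37-fold higher (difference 0.47 ± 0.14, limma adjusted p = 0.0133), a call lost in the fit of all 36 samples (limma adjusted p = 0.0913). Group means followed the order iUB (1454 ± 152), E11.5 SP (1173 ± 147), E11.5 UB (1059 ± 173), E12.5 SP (986 ± 634), E11.5 NP (968 ± 112), E12.5 UB (738 ± 67.3), E12.5 NP (738 ± 215), iSP (416 ± 39.5) and iNP (403 ± 103). E11.5 NP and E12.5 UB had separate ranges, and so had E12.5 NP and iSP. Without library 1, the E12.5 means were 671 in SP, 634 in NP and 743 in UB. Gm11175 covers 877 of the 1668 exon bases of Jund on the opposite strand, with a mean of 8.44 in iSP against 23.3 in E11.5 SP and of 19.6 in iUB against 20.2 in E11.5 UB.

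Atf3 (chromosome 1, 191170296 to 191218039, − strand), a stress-induced repressor and activator that pairs with JUN, had, after the thinly read Fosl1, the largest ratio of highest to lowest group mean (151). The SP libraries held 214, 209, 148 and 142 at E11.5, 360.3, 53.3, 62.3 and 55.7 at E12.5 and 3.09, 2.47, 2.73 and 3.21 in iSP. The NP libraries held 100.1, 57.7, 67.1 and 59.7 at E11.5, 116, 27.4, 40.7 and 25.7 at E12.5 and 3.83, 4.46, 3.08 and 3.16 in iNP. The UB libraries held 281, 357, 174 and 342 at E11.5, 172, 97.9, 132 and 93.8 at E12.5 and 281, 429, 449 and 578 in iUB. Every library of iSP and iNP lay below every ex-fetu library. Atf3 was 61.98-fold lower in iSP than in E11.5 SP (difference -5.51 ± 0.15, limma adjusted p = 1.75e-08). It was 19.6-fold lower in iNP than in E11.5 NP (difference -3.94 ± 0.18, limma adjusted p = 1.79e-07). In iUB it did not pass the test against E11.5 UB (difference 0.60 ± 0.26, limma adjusted p = 0.0703), although it did so without iUB 1 (difference 0.79, limma adjusted p = 0.00269) and under quantile normalisation (limma adjusted p = 0.0293). The order by mean was iUB (434 ± 122), E11.5 UB (288 ± 83.3), E11.5 SP (178 ± 38.1), E12.5 SP (133 ± 152), E12.5 UB (124 ± 36.2), E11.5 NP (71.1 ± 19.7), E12.5 NP (52.6 ± 43.1), iNP (3.63 ± 0.647) and iSP (2.88 ± 0.338), with the break between E12.5 NP and iNP the only place where neighbouring ranges separated. Over libraries 2 to 4 alone, E12.5 SP had a mean of 57.1, E12.5 NP 31.3 and E12.5 UB 108.

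Maff (chromosome 15, 79346621 to 79359076, + strand), a small Maf gene that cytokines and stress induce, was highest in E11.5 SP. In SP its libraries held 342, 346, 278 and 315 at E11.5, 489, 57.1, 65.6 and 60.01 at E12.5 and 11.2, 12.4, 11.1 and 9.77 in iSP. In NP its libraries held 88.4, 32.4, 47.3 and 32.8 at E11.5, 141, 11.8, 12.6 and 11.8 at E12.5 and 17.4, 19.3, 17.2 and 17.7 in iNP. In UB its libraries held 85.9, 107, 46.9 and 108 at E11.5, 73.3, 23.1, 28.1 and 29.4 at E12.5 and 40.4, 71.8, 72.2 and 76.2 in iUB. Both iSP and iNP lay wholly below their E11.5 groups. In iSP the mean was 28.8-fold lower (difference -4.73 ± 0.10, limma adjusted p = 3.54e-09). In iNP the mean was 2.805-fold lower (difference -1.31 ± 0.27, limma adjusted p = 0.00209). The iUB and E11.5 UB ranges overlapped (difference -0.38 ± 0.28, limma adjusted p = 0.271), but the difference was called without E11.5 UB 3 (difference -0.65, limma adjusted p = 0.0319). Its order of means was E11.5 SP (320.2 ± 31.1), E12.5 SP (168 ± 214), E11.5 UB (86.8 ± 28.4), iUB (65.2 ± 16.6), E11.5 NP (50.2 ± 26.4), E12.5 NP (44.3 ± 64.4), E12.5 UB (38.5 ± 23.4), iNP (17.9 ± 0.933) and iSP (11.1 ± 1.09), and ranges separated between E12.5 UB and iNP and between iNP and iSP. Without library 1, the E12.5 means were 60.9 in SP, 12.1 in NP and 26.9 in UB. E12.5 SP then lay below E11.5 UB and iUB, and E12.5 NP below iNP.

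Mafk (chromosome 5, 139791513 to 139802653, + strand), the other small Maf member, ranged from 29.2 to 59.5 at E11.5, 16.5 to 111 at E12.5 and 5.85 to 6.98 in iSP in SP, from 17.9 to 31.3 at E11.5, 16.5 to 75.7 at E12.5 and 8.62 to 11.01 in iNP in NP and from 52.9 to 74.8 at E11.5, 31.3 to 46.4 at E12.5 and 40.8 to 66.1 in iUB in UB. Like Maff it was lower in iSP than at E11.5 (difference -2.66 ± 0.21, limma adjusted p = 4.68e-06). It was lower in iNP as well (difference -1.12 ± 0.17, limma adjusted p = 0.000249). The iUB libraries overlapped those of E11.5 UB (difference -0.16 ± 0.17, limma adjusted p = 0.425). The groups stood in the order E11.5 UB (64.8 ± 10.4), iUB (58.3 ± 11.7), E11.5 SP (46.8 ± 14.96), E12.5 SP (45.02 ± 44.3), E12.5 UB (37.3 ± 6.704), E12.5 NP (35.2 ± 27.3), E11.5 NP (22.7 ± 5.88), iNP (9.74 ± 1.005) and iSP (6.29 ± 0.506), and E11.5 NP and iNP each had a range apart from the next group. Over libraries 2 to 4 alone, E12.5 SP had a mean of 22.99, E12.5 NP 21.7 and E12.5 UB 34.3. Tmem184a shares 169 exon bases with Mafk on the opposite strand and was highest in the UB groups, at a mean of up to 30.8 in iUB.

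**Figure D2:**
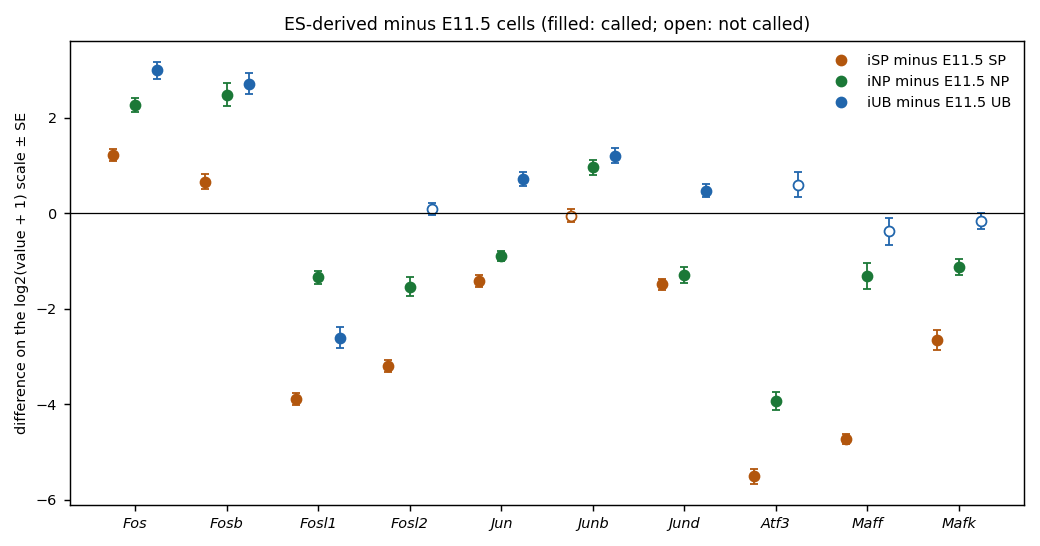
Log2 difference of each gene between mESC-derived cells and E11.5 cells of the same type (iSP, iNP and iUB), with bars of 1 standard error. Filled points passed limma's test at an adjusted p under 0.05 and open points did not. Fos and Fosb lie to the positive side in all 3 types, and Atf3 ranges from -5.51 in SP to 0.60 in UB.

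Whether the change from E11.5 to mESC-derived cells differed between the cell types was tested directly, as a contrast over the 16 libraries of each pair of types. The SP change was below the UB change for all 10 members, and 47.4% of all genes tested were called in that contrast. Atf3 differed by -6.11 ± 0.32 (limma adjusted p = 4.41e-10), Maff by -4.35 ± 0.32 (limma adjusted p = 2.33e-08) and Fosl2 by -3.29 ± 0.18 (limma adjusted p = 8.77e-10). Between SP and NP, 9 members were called (background 29.3%), each with the SP change the lower one. Maff led with -3.41 ± 0.31 (limma adjusted p = 5.77e-07) and Fosb followed among the well-read genes with -1.83 ± 0.31 (limma adjusted p = 0.000273). When all 36 samples shared 1 estimate of the spread, Fosb, Fos, Junb and Jun were no longer called (limma adjusted p = 0.116, 0.101, 0.132 and 0.528), nor was Fosb between SP and UB (0.0526). Jund was not called (difference -0.20 ± 0.21, limma adjusted p = 0.5198), and Jun lost its call when any of 8 libraries was left out: E11.5 NP 1 or 3, E11.5 SP 2 or 3, iNP 1 or 3 or iSP 1 or 4 (differences -0.43 to -0.51, limma adjusted p = 0.0509 to 0.0674). Between NP and UB, 7 members were called (background 47.1%). Atf3 (-4.53 ± 0.34 (limma adjusted p = 1.98e-08)) and Jund (-1.75 ± 0.23 (limma adjusted p = 9.15e-06)) changed to lower values in NP than in UB, while Fosb (difference -0.23 ± 0.36, limma adjusted p = 0.626), Junb (difference -0.24 ± 0.23, limma adjusted p = 0.413) and Maff (difference -0.94 ± 0.42, limma adjusted p = 0.0812) were not called. Maff was called without E11.5 NP 2 or iUB 1 (differences -1.100 to -1.15, limma adjusted p = 0.0259 to 0.0497), in edgeR (edgeR adjusted p = 0.0467) and under quantile normalisation (limma adjusted p = 0.0446). Fos (difference -0.72 ± 0.25, limma adjusted p = 0.0245) lost its call without E11.5 NP 1 or iUB 4 (differences -0.59 to -0.63, limma adjusted p = 0.0541 to 0.0559). Fos and Mafk lost theirs in the fit of all 36 samples (limma adjusted p = 0.218 and 0.146). The positive Fosl1 value (1.27 ± 0.27 (limma adjusted p = 0.00106)) depended on the pseudocount, being 0.0091 with 0.1 and -0.43 in edgeR.

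Heat shock chaperone genes moved in parallel with part of these changes. The summed level of 8 heat shock genes was 4355 to 5883 in E11.5 SP and 1332 to 1561 in iSP. For NP it was 3185 to 3806 at E11.5 and 1528 to 1777 in iNP. For UB it was 4464 to 4593 at E11.5 and 2362 to 3809 in iUB. Markers of other cells also differed. Erythroid genes summed to 81.9 to 1538 in E11.5 SP and to at most 0.146 in mESC-derived libraries. Macrophage genes summed to 56.7 to 95.97 in E11.5 UB and 0.223 to 0.558 in iUB. Endothelial genes summed to 8.24 to 24.1 in E11.5 NP and 43.1 to 72.9 in iNP. The part of these cells and of the chaperone difference in the changes of the members was not tested.

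Compared with E12.5 cells of the same type, which share the mESC-derived libraries with the comparisons above, Atf3, Maff, Fosl2, Mafk, Jund and Fosl1 were lower in iSP, and Fos and Fosb were higher in iNP and iUB. In iSP no member was called higher and 6 lower (background 33.3% and 28.8%), a share near that of all genes when taken either way. Of the 9 members tested in iNP, where Fosl1 did not pass the filter of 1 in 4 libraries, 3 were called higher and 3 lower (background 25.6% and 18.7%). In iUB 7 were called higher and none lower (background 23.3% and 21.2%). Atf3 differed by -4.57 ± 0.54 (limma adjusted p = 6.96e-05) in SP and -3.26 ± 0.41 (limma adjusted p = 0.000153) in NP, and was higher in iUB (difference 1.799 ± 0.25, limma adjusted p = 0.000548). Fos was higher by 2.18 ± 0.31 (limma adjusted p = 0.000345) in iNP and 1.99 ± 0.17 (limma adjusted p = 3.56e-05) in iUB. Fosb was higher by 2.79 ± 0.30 (limma adjusted p = 0.000151) in iUB. In iNP it was higher by 2.199 ± 0.73 (limma adjusted p = 0.0326), but that call was lost in edgeR (1.200, edgeR adjusted p = 0.249) and without any of E12.5 NP 2, 3 or 4 or iNP 1, 3 or 4 (differences 1.66 to 2.16, limma adjusted p = 0.0684 to 0.0842). Mafk in iUB (difference 0.62 ± 0.18, limma adjusted p = 0.0194) lost its call without any of E12.5 UB 2 or 4 or iUB 2, 3 or 4 (differences 0.54 to 0.58, limma adjusted p = 0.0533 to 0.0587) and in the fit of all 36 samples (limma adjusted p = 0.1801). Fosl2 in iNP (difference -0.95 ± 0.40, limma adjusted p = 0.0781) was called without E12.5 NP 2 (difference -1.18, limma adjusted p = 0.0409), in edgeR (edgeR adjusted p = 0.0476) and in the fit of all 36 samples (limma adjusted p = 0.00787). In iUB (difference 0.41 ± 0.16, limma adjusted p = 0.0656) it was called under scaling to a common total (limma adjusted p = 0.0433) and quantile normalisation (limma adjusted p = 0.0255).

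With the E12.5 libraries numbered 1 left out, an alternative chosen after the data were seen, more members passed. In iSP against E12.5 SP 8 of 9 tested members were called, 3 higher and 5 lower (background 69.9% called either way). Fos (difference 0.98 ± 0.15, limma adjusted p = 0.000218), Fosb (difference 1.32 ± 0.17, limma adjusted p = 5.93e-05) and Junb (difference 0.76 ± 0.15, limma adjusted p = 0.001302) were the 3 higher ones, where with all 4 libraries their differences were 0.45 ± 0.45, 0.47 ± 0.69 and 0.17 ± 0.49 and none was called. In iNP 4 were called higher and 3 lower of 9 (background 43.4%), and Maff turned from -0.33 ± 0.68, not called, to a rise (difference 0.53 ± 0.11, limma adjusted p = 0.00555). In iUB 8 were called higher (background 51.5%), with Maff added (difference 1.21 ± 0.22, limma adjusted p = 0.00201), which was also called without iUB 1 alone (limma adjusted p = 0.0326). Atf3 stayed lower in iSP (difference -3.91 ± 0.10, limma adjusted p = 2.51e-09) and iNP (difference -2.78 ± 0.19, limma adjusted p = 1.25e-05) without these libraries.

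Among the E11.5 cells, NP held the lowest mean of every member. SP was above NP for 9 members (background 43.1% of genes called either way), with Maff (2.77 ± 0.28 (limma adjusted p = 4.33e-05)), Fosb (2.74 ± 0.23 (limma adjusted p = 1.34e-05)), Fosl2 (2.51 ± 0.13 (limma adjusted p = 9.2e-07)) and Fosl1 (2.37 ± 0.15 (limma adjusted p = 2.88e-06)) at the head. Jund was not called (difference 0.27 ± 0.12, limma adjusted p = 0.0893) except without E11.5 NP 1 (difference 0.35, limma adjusted p = 0.0419). NP was below UB for 8 members (background 60.2%), led by Fosl1 (-3.68 ± 0.16 (limma adjusted p = 1.1e-09)). Fosl2 (-2.84 ± 0.11 (limma adjusted p = 6.23e-10)) and Atf3 (-1.99 ± 0.22 (limma adjusted p = 7e-06)) came next. Fos (difference -0.076 ± 0.18, limma adjusted p = 0.737) and Jund (difference -0.12 ± 0.12, limma adjusted p = 0.422) were not called between NP and UB, Jund being called without E11.5 UB 3 (difference -0.25, limma adjusted p = 0.0309). The Maff call (difference -0.83 ± 0.32, limma adjusted p = 0.0388) did not hold in edgeR (-0.81, edgeR adjusted p = 0.0508) or without any of E11.5 NP 2, 3 or 4 or E11.5 UB 1, 2 or 4 (differences -0.67 to -0.84, limma adjusted p = 0.0643 to 0.112). In the fit of all 36 samples Maff and Fosb were not called (limma adjusted p = 0.256 and 0.0666).

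Between SP and UB at E11.5, 3 members were called higher in SP, 3 higher in UB and 4 in neither, a share near the 53.6% of all genes called. Maff (1.94 ± 0.23 (limma adjusted p = 4.86e-05)), Fos (1.49 ± 0.18 (limma adjusted p = 5.58e-05)) and Fosb (1.38 ± 0.22 (limma adjusted p = 0.000396)) were the SP-high members, so that SP had 320.2 ± 31.1 of Maff and UB 86.8 ± 28.4. Fosl1 (-1.31 ± 0.16 (limma adjusted p = 4.88e-05)), Jun (-0.41 ± 0.11 (limma adjusted p = 0.00907)) and Atf3 (-0.66 ± 0.23 (limma adjusted p = 0.0328)) were higher in UB. The Atf3 call was lost without any of E11.5 SP 3 or 4 or E11.5 UB 1, 2 or 4 (differences -0.54 to -0.66, limma adjusted p = 0.0518 to 0.1001). The calls of Fosb, Jun and Atf3 were lost when all 36 samples shared 1 estimate of the spread (limma adjusted p = 0.0554, 0.378 and 0.194). Fosl2 (difference -0.33 ± 0.16, limma adjusted p = 0.0999) and Mafk (difference -0.51 ± 0.22, limma adjusted p = 0.0771) were not called with all libraries, but Fosl2 was without E11.5 SP 2 or E11.5 UB 3 (differences -0.44 to -0.46, limma adjusted p = 0.01796 to 0.0376) and Mafk without E11.5 SP 1 or 2 (differences -0.63 to -0.64, limma adjusted p = 0.0337 to 0.03896).

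At E12.5, SP was again above NP for Fosl2 (2.49 ± 0.47 (limma adjusted p = 0.002496)), Fos (2.25 ± 0.54 (limma adjusted p = 0.00968)), Fosl1 (2.005 ± 0.38 (limma adjusted p = 0.002703)) and Junb (1.71 ± 0.58 (limma adjusted p = 0.0473)), and the other 6 members were not called (background 34.8%). The share of members called was near that background. Same-numbered E12.5 SP and NP samples deviated together, and with the number as a block 8 members were called higher in SP, against 57.8% of all genes called. In that blocked fit Maff (difference 2.13 ± 0.10, limma adjusted p = 5.14e-06), Fosb (difference 2.64 ± 0.13, limma adjusted p = 6.11e-06), Atf3 (difference 1.06 ± 0.15, limma adjusted p = 0.000901) and Jun (difference 0.84 ± 0.14, limma adjusted p = 0.00189) were added, and Jund (difference 0.28 ± 0.16, limma adjusted p = 0.161) and Mafk (difference 0.19 ± 0.11, limma adjusted p = 0.171) stayed uncalled. Without the libraries numbered 1 and without the block, 6 of 9 tested members were called (background 40.2%), among them Maff (difference 2.24 ± 0.10, limma adjusted p = 3.76e-06) and Fosb (difference 2.66 ± 0.33, limma adjusted p = 0.000531). Leaving out E12.5 NP 1 alone was enough for the calls of Fosb (limma adjusted p = 0.0109) and Maff (limma adjusted p = 0.00986). The Junb call without the block was lost when any of these was left out: E12.5 NP 2, 3 or 4 or E12.5 SP 1, 2 or 4 (differences 1.12 to 1.93, limma adjusted p = 0.0514 to 0.119). It was also lost under scaling to a common total, quantile normalisation, no filter and a filter of 5 (limma adjusted p = 0.0511 to 0.0658).

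NP lay below UB at E12.5 for 6 members (background 32.7%), led by Fosl2 (-3.12 ± 0.39 (limma adjusted p = 0.000238)), Fosl1 (-2.12 ± 0.37 (limma adjusted p = 0.00187)) and Junb (-2.06 ± 0.33 (limma adjusted p = 0.00123)). Without the libraries numbered 1 this was 8 of 9 (background 39.3%), with Fosb (difference -1.53 ± 0.29, limma adjusted p = 0.00439), Maff (difference -1.08 ± 0.12, limma adjusted p = 0.000246) and Mafk (difference -0.65 ± 0.17, limma adjusted p = 0.0191) added and Fosl1 not tested. With single libraries left out the number of members called ranged from 4 to 9. The Fos call (difference -0.99 ± 0.33, limma adjusted p = 0.0484) was lost without any of E12.5 NP 2, 3 or 4 or E12.5 UB 1, 2, 3 or 4 (differences -0.77 to -1.06, limma adjusted p = 0.0853 to 0.117), and the Atf3 call (difference -1.46 ± 0.44, limma adjusted p = 0.0304) without any of E12.5 NP 2, 3 or 4 or E12.5 UB 1, 2, 3 or 4 (differences -1.22 to -1.58, limma adjusted p = 0.0555 to 0.0833). Without the libraries numbered 1 both were called, Fos (difference -1.18 ± 0.15, limma adjusted p = 0.000564) and Atf3 (difference -1.76 ± 0.20, limma adjusted p = 0.000285). In edgeR with all libraries neither was called (edgeR adjusted p = 0.118 and 0.101), and Fos was not called under scaling to a common total, no filter or a filter of 5 either. Between SP and UB, limma called none of the 10 members with all E12.5 libraries (background 46.4%), 2 had an unadjusted p under 0.05, and edgeR called Fos alone (1.65, edgeR adjusted p = 0.0348). Fos, Fosb, Jun and Maff were called when all 36 samples shared 1 estimate of the spread (limma adjusted p = 0.00167, 0.0226, 0.0368 and 0.0232), and Fos also without any of E12.5 SP 1 or 3 or E12.5 UB 1 (differences 0.73 to 1.56, limma adjusted p = 0.0188 to 0.0491). Without E12.5 SP 1 alone, Fosl2, Jun, Junb, Atf3 and Mafk were called as well (limma adjusted p = 0.00164, 0.000153, 0.00132, 0.00258 and 0.01802). Without the libraries numbered 1, 8 members were called (background 56.7%). Maff (difference 1.16 ± 0.11, limma adjusted p = 1e-05), Fosb (difference 1.12 ± 0.15, limma adjusted p = 0.000128) and Fos (difference 0.89 ± 0.16, limma adjusted p = 0.000864) were then higher in SP and Jun (difference -1.64 ± 0.14, limma adjusted p = 5.98e-06) and Fosl2 (difference -1.16 ± 0.084, limma adjusted p = 1.5e-06) higher in UB. Of these 5, Fosl2 was not called at E11.5 and the others were called there on the same side. Junb (difference -0.98 ± 0.15, limma adjusted p = 0.000373), Atf3 (difference -0.89 ± 0.13, limma adjusted p = 0.000224) and Mafk (difference -0.58 ± 0.17, limma adjusted p = 0.0146) were also higher in UB. At E11.5 Atf3 was called on that side, and Mafk was not called. Junb was not called there either, with the other sign (difference 0.23 ± 0.18, limma adjusted p = 0.308). In E12.5 UB library 1 the SP markers summed to 581 and the endothelial markers to 78.6, against 188 to 204 and 2.604 to 5.12 in the other 3 libraries.

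Among the mESC-derived groups iUB held the highest mean of every member. All 10 members were lower in iNP than in iUB (background 52.2%) and 9 were lower in iSP than in iUB (background 64.7%), the exception being Fos (difference -0.28 ± 0.12, limma adjusted p = 0.0588), which was called without iUB 1 (difference -0.36, limma adjusted p = 0.00517). Fos was called as well under scaling to a common total (limma adjusted p = 0.0422), quantile normalisation (limma adjusted p = 0.0324) and edgeR (edgeR adjusted p = 0.0437). Fosb lost its call against iUB in the fit of all 36 samples (limma adjusted p = 0.353). Atf3 separated them most, with 434 ± 122 in iUB against 3.63 ± 0.647 in iNP (difference -6.52 ± 0.21, limma adjusted p = 1.03e-08). In iSP it was 2.88 ± 0.338 (difference -6.77 ± 0.19, limma adjusted p = 1.68e-09). Fosl2 (-4.47 ± 0.20 (limma adjusted p = 1.07e-07)) and Jun (-3.17 ± 0.17 (limma adjusted p = 2.92e-07)) followed between iNP and iUB. Between iSP and iNP the members differed less: 7 of 9 tested were called (background 30.7%), 5 of them higher in iSP. Fosb (0.91 ± 0.18 (limma adjusted p = 0.00417)), Fosl2 (0.86 ± 0.20 (limma adjusted p = 0.00876)), Jun (0.62 ± 0.12 (limma adjusted p = 0.00312)), Junb (0.56 ± 0.12 (limma adjusted p = 0.00513)) and Fos (0.52 ± 0.11 (limma adjusted p = 0.00484)) were higher in iSP, and Maff (-0.64 ± 0.094 (limma adjusted p = 0.000641)) and Mafk (-0.56 ± 0.10 (limma adjusted p = 0.00259)) lower. When all 36 samples shared a single estimate of the spread, 1 member was called in this comparison, Fosl2.

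To compare members with each other, levels were divided by the length of each gene's exons in kb. On that scale Jund had the highest level in all 9 groups, from 242 ± 61.7 per kb in iNP to 872 ± 91.1 per kb in iUB. Within the Jun genes Jund made up 84.3 ± 1.55% of the summed level per kb in E11.5 NP and 71.7 ± 4.42% in iNP. For UB these shares were 67.3 ± 2.22% in E11.5 UB and 61.3 ± 5.34% in iUB. Fos and Fosb together made up 72.6 ± 1.06% of the 4 Fos genes in E11.5 SP and 98.5 ± 0.104% in iSP. They made up 81.9 ± 2.29% in E11.5 NP and 98.7 ± 0.315% in iNP. They made up 39.1 ± 2.99% in E11.5 UB and 86.2 ± 1.71% in iUB. At E12.5 the shares were 86.4 ± 4.79% in SP, 88.9 ± 0.681% in NP and 63.3 ± 9.32% in UB (range 57.3 to 77.2%), so that E11.5 UB was the one group of the 9 in which Fosl1 and Fosl2 held the larger share. Fos alone reached 30.5% of the summed level of all 10 members in iSP and 27.2% in iNP, where the E11.5 shares were 6.29% for SP and 3.58% for NP. Maff made up 91.2 ± 2.11% of the sum of Maff and Mafk in E11.5 SP and 72.6 ± 1.92% in iSP. In NP it made up 75.5 ± 4.37% at E11.5 and 73.4 ± 2.85% in iNP, and in UB 65.7 ± 5.75% and 62.4 ± 1.74%. These shares use annotated exons, which need not be the transcripts present, and no test was run on them.

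**Figure D3:**
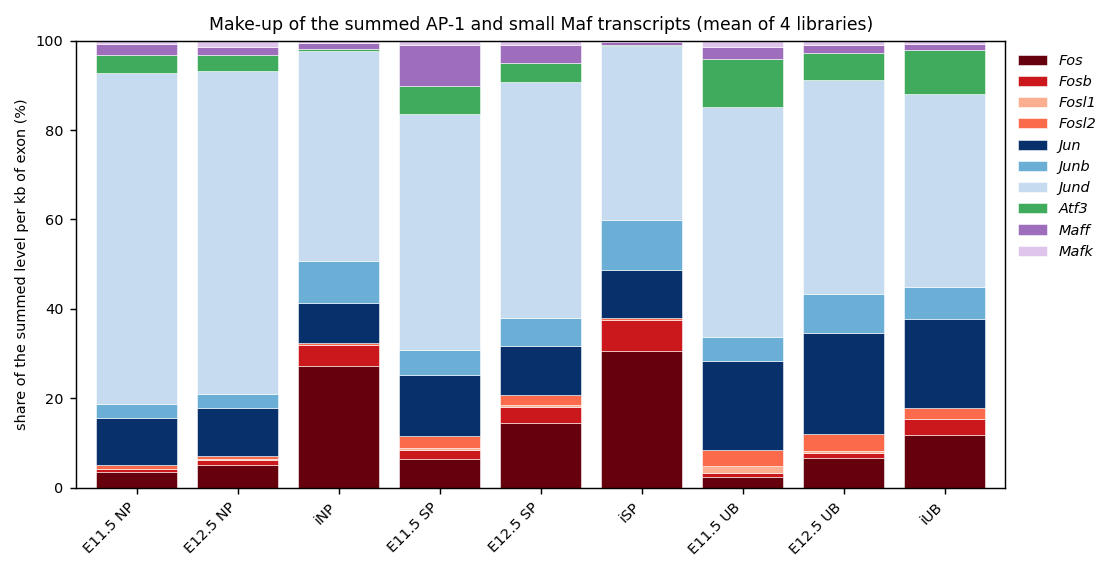
Share of each gene in the summed level per kb of exon of the 10 genes, in percent, for each group (mean of 4 libraries, stacked to 100). Jund is the widest band in every group, and Fos widens from 6.29% in E11.5 SP to 30.5% in iSP.

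With all libraries, 6 members were called between E11.5 and E12.5 UB by the titles of the samples, 1 between the SP ages and none between the NP ages, and without the E12.5 libraries numbered 1 the counts were 7, 9 and 7. Fos rose in E12.5 UB (difference 1.0 ± 0.20, limma adjusted p = 0.00685). Fosl1 fell most (difference -2.07 ± 0.17, limma adjusted p = 0.000188). Atf3 (difference -1.203 ± 0.25, limma adjusted p = 0.00863) and Maff (difference -1.24 ± 0.37, limma adjusted p = 0.0355) fell next. Mafk (difference -0.78 ± 0.14, limma adjusted p = 0.00494) and Jund (difference -0.51 ± 0.13, limma adjusted p = 0.0172) fell less. These were 1 member higher and 5 lower (background 14.2% and 12.3%). The Maff call was lost in edgeR (-1.18, edgeR adjusted p = 0.0521) and without any of E11.5 UB 1, 2 or 4 or E12.5 UB 2, 3 or 4 (differences -1.05 to -1.22, limma adjusted p = 0.0849 to 0.0992), and the Jund call without any of E11.5 UB 1, 2 or 4 or E12.5 UB 2 (differences -0.45 to -0.47, limma adjusted p = 0.0511 to 0.0553). In the fit of all 36 samples Maff, Jund and Mafk were not called (limma adjusted p = 0.146, 0.1395 and 0.159), and Maff was not called with no filter either (limma adjusted p = 0.0556). Without E12.5 UB 1 all 6 were called, Maff with a limma adjusted p = 0.000119. If the cell source label and not the title gives the age, each of these directions turns. The comparisons of iUB with E11.5 UB and with E12.5 UB would then change places. Those of ex-fetu SP or NP with UB would pair different ages, and the contrasts with UB would use the other UB age. The heat shock sum was 4464 to 4593 in the libraries titled E11.5 UB and 1500.5 to 2326 in those titled E12.5 UB, beside 3185 to 3806 in E11.5 NP and 1392 to 1669 in E12.5 NP libraries 2 to 4.

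In SP only Fosl1 was called between the ages (difference -0.88 ± 0.19, limma adjusted p = 0.0236), with 1 member lower, none higher and backgrounds of 4.80% and 3.73%. That call was lost without any of E11.5 SP 1, 2 or 3 or E12.5 SP 2, 3 or 4 (differences -0.80 to -0.94, limma adjusted p = 0.0569 to 0.0863). In NP limma called none of the 10 members (background 2.74% higher and 3.59% lower), 1 had an unadjusted p under 0.05, and edgeR called 0. These counts changed without the libraries numbered 1. Without them, 9 members were lower in E12.5 SP than in E11.5 SP and none higher (background 10.8% lower and 10.7% higher). In NP, 7 were lower at E12.5 and none higher (background 8.0% lower and 8.97% higher). Maff then differed most, by -2.37 ± 0.11 (limma adjusted p = 2.54e-05) in SP and -1.84 ± 0.31 (limma adjusted p = 0.00704) in NP. Atf3 was next, with -1.605 ± 0.17 (limma adjusted p = 0.000844) and -1.15 ± 0.22 (limma adjusted p = 0.0113). Fos, the exception in SP, was not called (difference 0.25 ± 0.19, limma adjusted p = 0.404). In UB, 2 members were higher and 5 lower without library 1 (background 24.9% and 19.1%), Junb (difference 0.40 ± 0.14, limma adjusted p = 0.0395) joining Fos (difference 0.85 ± 0.15, limma adjusted p = 0.000642) as higher. The 5 lower ones were then Fosl1 (difference -2.17 ± 0.14, limma adjusted p = 3.68e-07), Maff (difference -1.59 ± 0.22, limma adjusted p = 0.000119), Atf3 (difference -1.37 ± 0.20, limma adjusted p = 0.000163), Mafk (difference -0.89 ± 0.11, limma adjusted p = 5.84e-05) and Jund (difference -0.50 ± 0.12, limma adjusted p = 0.00479).

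**Figure D4:**
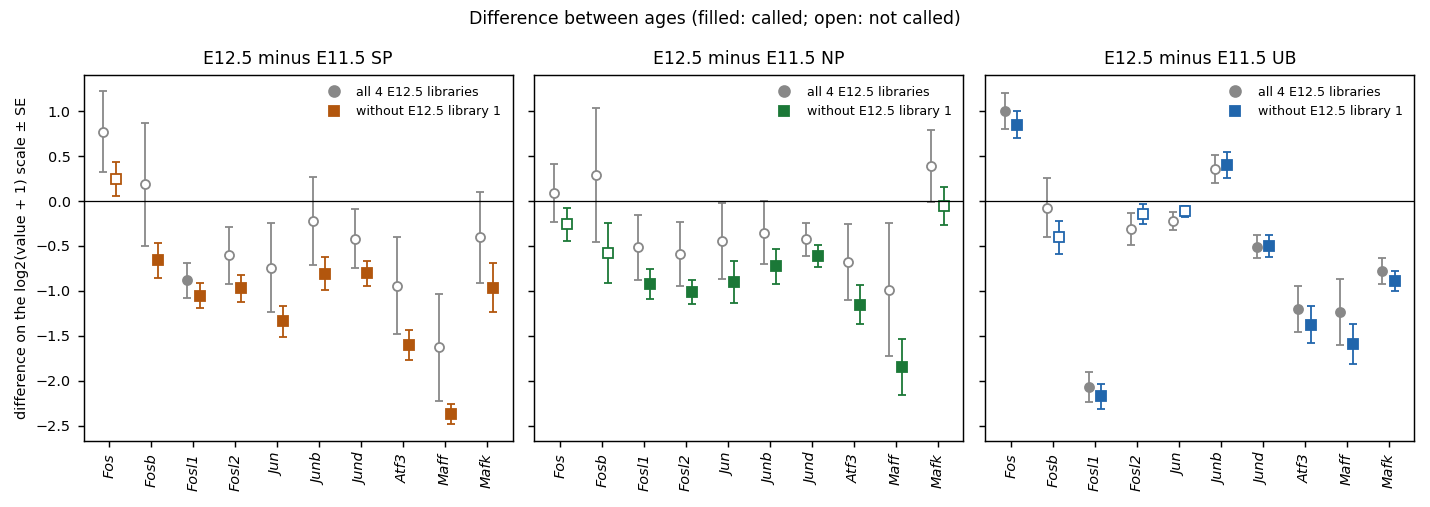
Log2 difference of each gene between E12.5 and E11.5 in SP, NP and UB with bars of 1 standard error, in grey with all 4 E12.5 libraries and in colour (squares) without E12.5 library 1. In SP and NP the squares lie below the grey points, with Maff in SP moving from -1.63 to -2.37.

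The E12.5 SP and NP libraries numbered 1 were high in the members, other immediate early genes and chaperones, and the UB library numbered 1 in some of them. In E12.5 SP, library 1 had 1158 against 90.97 to 145 of Fosb in libraries 2 to 4, 1197 against 179 to 284 of Jun and 489 against 57.1 to 65.6 of Maff. In E12.5 NP it had 193 against 9.51 to 24.1 of Fosb and 141 against 11.8 to 12.6 of Maff. In E12.5 UB only Fosb (127 against 48.7 to 51.1) and Maff (73.3 against 23.1 to 29.4) were more than 1 above the mean of the others on the log2 scale, and 6 of the 10 members were highest in library 1. Fosl2 (239 against 363 to 397), Jun (528 against 671 to 728) and Junb (168 against 173 to 216) were lowest in it. The sum of 22 other immediate early genes was 6351 in SP library 1 against 2103 to 2738, and 2344 in NP library 1 against 979 to 1206. In UB library 1 it was 3491, within the 3417 to 3571 of the others. The heat shock sum was 8201 against 1435 to 1775 in SP, 4118 against 1392 to 1669 in NP and 2326 against 1500.5 to 1614 in UB. Markers of the sorted type were lower in library 1 of SP (3977 against 6422 to 6726), of NP (1593 against 2585 to 2677) and of UB (1729 against 2707 to 2846). The part of these differences in the members' levels was not tested.

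**Figure D5:**
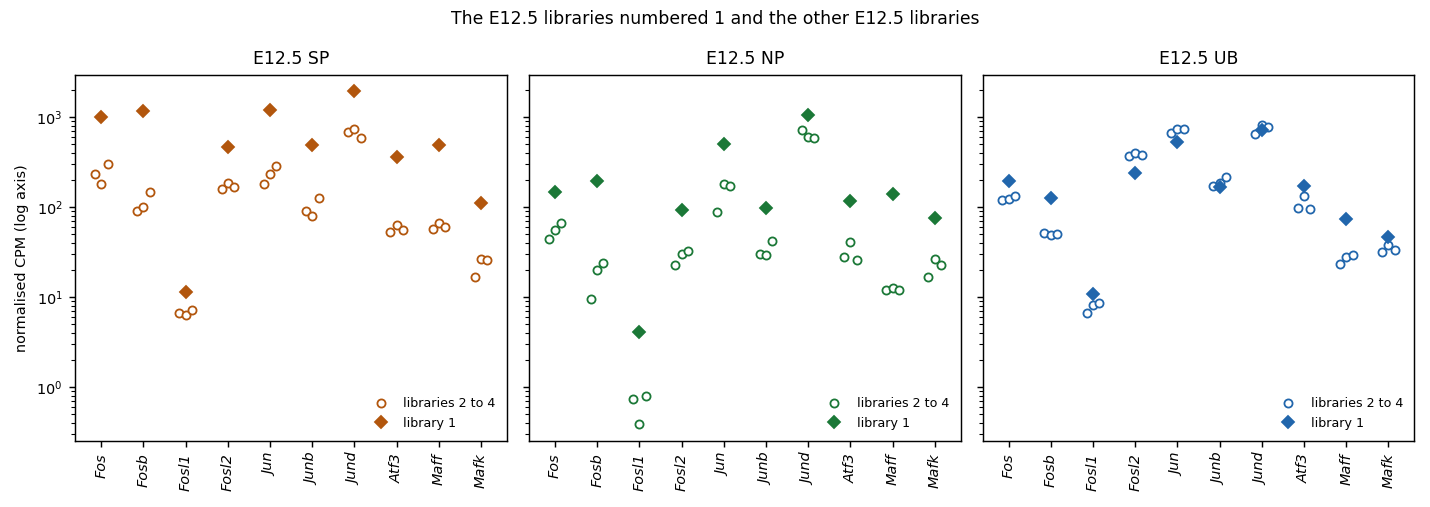
Levels of the 10 genes in the 3 E12.5 groups in normalised CPM (log axis), with library 1 as a diamond and libraries 2 to 4 as open circles. In SP and NP every diamond lies above the circles, as for Fosb in SP (1158 against 90.97 to 145), and in UB 6 diamonds lie above the circles, among them Fos (192 against 120.0 to 132), 3 lie below and that of Jund lies among them.

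Genes around these factors were counted in lists. Of other immediate early genes, limma called 3 of 22 tested genes higher and 17 lower in iSP, 4 of 22 tested genes higher and 13 lower in iNP and 12 of 22 tested genes higher and 5 lower in iUB, each against E11.5 cells of the same type, with median differences of -1.58 in SP, -0.62 in NP and 0.39 in UB. Over all genes tested, the shares called higher and lower were 35.5% and 32.1% in iSP, 35.5% and 29.2% in iNP and 32.1% and 28.5% in iUB, and these are the background of each list count that follows. The members that moved most were not the same in each type. In iSP the largest changes were falls in Nr4a1 (-3.27 ± 0.20 (limma adjusted p = 9.22e-07)), an orphan nuclear receptor, and Btg2 (-3.06 ± 0.17 (limma adjusted p = 5.47e-07)), an antiproliferative gene. In iNP they were rises in Ier3 (3.16 ± 0.18 (limma adjusted p = 5.96e-07)) and the zinc finger gene Egr1 (2.21 ± 0.23 (limma adjusted p = 2.58e-05)) and a fall in Myc (-2.32 ± 0.13 (limma adjusted p = 4.78e-07)). In iUB they were rises in Egr3 (2.85 ± 0.26 (limma adjusted p = 1.03e-05)), Egr1 (2.31 ± 0.21 (limma adjusted p = 8.9e-06)) and Egr2 (1.84 ± 0.21 (limma adjusted p = 3.92e-05)). Fos and Fosb thus rose in iSP where 17 of 22 other immediate early genes fell.

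The heat shock chaperones were lower almost throughout, with 0 of 8 tested genes higher and 8 lower in iSP, 0 of 8 tested genes higher and 8 lower in iNP and 1 of 8 tested genes higher and 6 lower in iUB. Hspa1a, which encodes the inducible HSP70, differed by -6.0 ± 0.14 (limma adjusted p = 6.86e-09) in iSP, -3.87 ± 0.26 (limma adjusted p = 1.92e-06) in iNP and -1.42 ± 0.54 (limma adjusted p = 0.0447) in iUB. Among kinases and serum response factors upstream of Fos and Jun, limma called 4 of 17 tested genes higher and 9 lower in iSP, 2 of 17 tested genes higher and 11 lower in iNP and 6 of 17 tested genes higher and 4 lower in iUB. The iUB counts of this list were near that background. Srf, serum response factor itself, was lower in iSP (-1.41 ± 0.21 (limma adjusted p = 0.000226)) and iNP (-1.13 ± 0.13 (limma adjusted p = 3.85e-05)), as were its partner gene Elk4 (-1.197 ± 0.18 (limma adjusted p = 0.000227) and -0.92 ± 0.14 (limma adjusted p = 0.000304)) and the JNK gene Mapk8 (-1.03 ± 0.10 (limma adjusted p = 1.81e-05) and -1.38 ± 0.13 (limma adjusted p = 1.15e-05)). The median differences of the upstream list were -0.29 in SP, -0.42 in NP and 0.15 in UB, and those of the chaperones -2.33 in SP, -1.701 in NP and -0.84 in UB.

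Of other basic leucine zipper partners and relatives, limma called 1 of 11 tested genes higher and 7 lower in iSP, 4 of 12 tested genes higher and 5 lower in iNP and 6 of 13 tested genes higher and 4 lower in iUB, with medians of -0.69 in SP, -0.23 in NP and 0.25 in UB. Jdp2, a JUN-binding repressor, was lower in all 3 (iSP -3.73 ± 0.12 (limma adjusted p = 3.45e-08), iNP -3.38 ± 0.11 (limma adjusted p = 2.45e-08) and iUB -3.16 ± 0.14 (limma adjusted p = 1.12e-07)). Mafg, the third small Maf gene, was among the 4 largest changes of the list in iSP (-1.13 ± 0.10 (limma adjusted p = 1.16e-05)), and Bach2, a repressor that pairs with small Maf proteins, was higher in iSP (1.67 ± 0.18 (limma adjusted p = 3.02e-05)) and iNP (0.83 ± 0.32 (limma adjusted p = 0.0416)).

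Of genes known as AP-1 targets, limma called 1 of 10 tested genes higher and 9 lower in iSP, 3 of 8 tested genes higher and 4 lower in iNP and 0 of 9 tested genes higher and 6 lower in iUB, with medians of -2.29 in SP, -0.15 in NP and -0.83 in UB. Hbegf, an EGF-family ligand, differed by -4.23 ± 0.099 (limma adjusted p = 6.86e-09) in iSP, -1.27 ± 0.19 (limma adjusted p = 0.000254) in iNP and -1.73 ± 0.21 (limma adjusted p = 7.06e-05) in iUB, and Plaur, the urokinase receptor, by -3.44 ± 0.16 (limma adjusted p = 2.65e-07), -1.47 ± 0.15 (limma adjusted p = 2.65e-05) and -2.83 ± 0.13 (limma adjusted p = 1.77e-07). Mmp9, a matrix protease, was higher in iNP (4.01 ± 0.25 (limma adjusted p = 1.15e-06)). Of genes known as targets of NRF2 with small Maf proteins, limma called 2 of 11 tested genes higher and 6 lower in iSP, 4 of 10 tested genes higher and 1 lower in iNP and 9 of 11 tested genes higher and 2 lower in iUB, with medians of -0.36 in SP, 0.13 in NP and 0.49 in UB. Nqo1, a quinone reductase, was higher in iNP (1.22 ± 0.12 (limma adjusted p = 1.89e-05)) and iUB (3.003 ± 0.17 (limma adjusted p = 4.76e-07)), and Srxn1, sulfiredoxin, was lower in iSP (-1.99 ± 0.16 (limma adjusted p = 4.92e-06)) and iUB (-1.09 ± 0.073 (limma adjusted p = 1.52e-06)). Between the UB ages all 8 chaperones were lower in the samples titled E12.5, with Hspa1a at -3.96 ± 0.52 (limma adjusted p = 0.00125).

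The genes whose pattern was most like that of each member were found by Pearson's r of log2(normalised CPM + 1) over the 36 libraries, out of 16000 genes compared. These 36 points share group differences, depth and the high E12.5 libraries numbered 1, so r is given as a description. Fos was most like Cpt1c (0.96), Fam221a (0.93) and Fosb (0.93), and Fosb most like Fos (0.93), Cpt1c (0.91) and Klf11 (0.88). For Fosl1 the 3 nearest were Hbegf (0.98), Itgb8 (0.96) and Myl12a (0.95), and for Fosl2 they were Nt5dc3 (0.98), Klf6 (0.97) and Sytl4 (0.96). Jun lay closest to Btg2 (0.93), Fosl2 (0.92) and Egr2 (0.91), and Junb to Dusp1 (0.94), Egr1 (0.91) and Cxcl1 (0.89). Jund lay closest to Dusp8 (0.92), Atf3 (0.91) and Slc30a1 (0.90). Atf3 had Ell2 (0.97), Dusp8 (0.96) and Mafk (0.95) as its nearest genes, Mafk had Atf3 (0.95), Bcar1 (0.94) and Epha2 (0.94), and Maff had Bcl10 (0.96), Lemd3 (0.92) and Gla (0.92). Members were thus among the 3 nearest genes of each other for the pairs Fos and Fosb and Atf3 and Mafk, while Fosl2 was near Jun, and Atf3 near Jund, in a single direction.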

How the data were processed

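RNA of 36 sorted samples was sequenced by the authors from stranded poly(A) libraries and trimmed, aligned and counted per gene. The submitters' notes name cutadapt, STAR and GRCh38, although the gene identifiers are mouse; the counter and its use of strand are not given in the sources used here. The deposited table is of unit signal: CPM values that the authors scaled by edgeR factors. Whole reads could be recovered for 100% of values (tolerance 0.1 read), with 13.004 to 52.5 M reads per library. A second table, not used, holds the same values with the authors' group means, log2 fold changes, p-values and FDR. All its sample columns and those of the first table could be mapped.

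The test was limma 3.58.1 under R 4.3.3, on the scale log2(value + 1), using lmFit and a trended eBayes. It covered genes that reached 1 in at least 4 of the 8 libraries compared (16 for contrasts between types). p-values were adjusted by Benjamini and Hochberg's procedure across every gene tested, with a threshold of 0.05. The model was tested on simulated data. Alternatives were a pseudocount of 0.1, no filter, a filter of 5, scaling to a common total, quantile normalisation, a fit of all 36 samples, edgeR 4.0.16 (quasi-likelihood) on recovered reads, the replicate number as a block, each library left out and, added after seeing the data, no E12.5 library numbered 1. Same-numbered E12.5 SP and NP samples had correlated deviations (r = 0.543 to 0.6998), so their numbers were taken as pairing them; the labels do not say what a number marks. p-values measure the spread between the samples as labelled.

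All 10 members are named; of each list, counts and up to 4 of the largest called changes are named, and of each member the 3 genes most like it. Members and lists were chosen with earlier results of these data known. Loci and exon lengths are from GENCODE vM21 (GRCm38), which held 22642 of 22761 identifiers (99.5%), and promoters from RefSeq (GRCm38.p6). Levels were drawn with matplotlib 3.10.9, and values set per group are means ± SD of 4 samples. The floor of 3 reads covers counting error only, and standard errors and SDs the spread between samples.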

Additional observations from a re-analysis of the deposited data

Results flagged for a closer look

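Of 90 sets of 4 libraries (10 members in 9 groups), 24 had a highest or lowest library whose gap to the nearest other exceeded Dixon's 95% critical value for the share of the range. Chance flags about 1 in 20 such sets if the values are normal and independent. The members share their libraries and deviated together, so the flags are not separate events and their excess was not tested. In 19 of the 24 the library was an E12.5 library numbered 1. In E12.5 SP, library 1 was highest in this way for Fos (1009), Fosb (1158), Fosl1 (11.4), Fosl2 (468), Jun (1197), Junb (488), Jund (1932), Atf3 (360.3), Maff (489) and Mafk (111), all in normalised CPM. In E12.5 NP it was so for Fosb (193), Fosl1 (4.09), Fosl2 (93.5), Atf3 (116), Maff (141) and Mafk (75.7). In E12.5 UB it was so for Fos (192), Fosb (127) and Maff (73.3). The remaining 5 were the high Fos value of E11.5 SP library 2 (248), the low Fosl1 (28.5) and Jund (801) values of E11.5 UB library 3, and the low Maff (40.4) and Mafk (40.8) values of iUB library 1. Of the iUB libraries that library had the fewest reads on genes, at 13.004 M, against 22.4 to 27.99 M.

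The change from E11.5 to mESC-derived cells differed between cell types in 26 of 30 tests (limma, 10 members in 3 pairs of types, adjusted over all genes), with 9 of 10 members called for SP and NP (background 29.3% of genes), 10 for SP and UB (47.4%) and 7 for NP and UB (47.1%). The values are the change in the first type minus that in the second, on the log2 scale. For SP minus NP they were Fos (-1.05), Fosb (-1.83), Fosl1 (-2.55), Fosl2 (-1.65), Jun (-0.52), Junb (-1.02), Atf3 (-1.58), Maff (-3.41) and Mafk (-1.54). For SP minus UB they were Fos (-1.77), Fosb (-2.06), Fosl1 (-1.28), Fosl2 (-3.29), Jun (-2.14), Junb (-1.26), Jund (-1.96), Atf3 (-6.11), Maff (-4.35) and Mafk (-2.495). For NP minus UB they were Fos (-0.72), Fosl1 (1.27), Fosl2 (-1.63), Jun (-1.62), Jund (-1.75), Atf3 (-4.53) and Mafk (-0.96). Fosl1 rested on 1 to 12 reads per library in iSP and iNP, and 7 of the 26 calls were lost in the fit of all 36 samples.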

How the results depend on the processing

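The counts of members called between mESC-derived and E11.5 cells stayed within 1.5 times their value under a pseudocount of 0.1, no filter, a filter of 5, scaling to a common total, quantile normalisation, edgeR on the recovered reads and the shared fit of all 36 samples. That shared fit gave 2 members called for E12.5 SP against E11.5 SP (1 otherwise), 3 for E12.5 UB against E11.5 UB (6), 3 for E11.5 SP against UB (6), 7 for E12.5 SP against NP (4), 4 for E12.5 SP against UB (0), 1 for iSP against iNP (7) and 5 for the SP minus NP contrast (9), where Fos, Fosb, Jun and Junb were lost. edgeR gave 1 for E12.5 SP against UB. With no E12.5 library numbered 1, chosen after seeing the data, the counts were 9 for E12.5 SP against E11.5 SP, 7 for E12.5 NP against E11.5 NP and 8 for E12.5 SP against UB. With single libraries left out they ranged over 0 to 9, 0 to 7 and 0 to 6, in that order, and the highest value of each was without an E12.5 library numbered 1.

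The replicate block gave 8 calls for E12.5 SP against NP, where the numbers pair the samples, and 3 for E12.5 SP against UB, where they share only a number. No other count of members moved by over 1.5 times under the block. In the other 17 comparisons correlations of same-numbered samples ran from -0.575 to 0.6903.

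Directions of single members turned as follows, and the cause was not tested. In edgeR they were Fosb (-0.50) and Junb (-0.31) for iSP against E12.5 SP, Junb (0.22) for E12.5 SP against E11.5 SP, Junb (0.13), Atf3 (0.16) and Mafk (0.32) for E12.5 SP against E12.5 UB, Maff (0.22) for E12.5 NP against E12.5 UB and Fosl1 (-0.43) for the NP minus UB contrast. Under quantile normalisation they were Junb (0.18) for iSP against E11.5 SP and Fosl1 (0.031) for E12.5 SP against E12.5 UB, and scaled to a common total Junb (0.035) for iSP against E11.5 SP. With no E12.5 library numbered 1 they were Jun (0.0095) and Maff (0.53) for iNP against E12.5 NP, Fosb (-0.66) for E12.5 SP against E11.5 SP, Fos (-0.26), Fosb (-0.58) and Mafk (-0.056) for E12.5 NP against E11.5 NP and Jund (-0.15) for E12.5 SP against E12.5 UB. With single libraries left out the ranges that crossed 0 were, for iSP against E11.5 SP, Junb -0.15 to 0.047, and for iUB against E11.5 UB, Fosl2 -0.018 to 0.17, and for iSP against E12.5 SP, Junb -0.11 to 0.76, and for iNP against E12.5 NP, Jun -0.83 to 0.0095 and Maff -0.63 to 0.53, and for E12.5 SP against E11.5 SP, Fosb -0.66 to 0.56 and Junb -0.81 to 0.060. Further such ranges were, for E12.5 NP against E11.5 NP, Fos -0.26 to 0.31, Fosb -0.58 to 0.82 and Mafk -0.056 to 0.65, and for E12.5 UB against E11.5 UB, Fosb -0.40 to 0.048, and for E11.5 NP against E11.5 UB, Fos -0.25 to 0.033, and for E12.5 SP against E12.5 NP, Jund -0.10 to 0.47 and Mafk -0.37 to 0.64, and for E12.5 SP against E12.5 UB, Jund -0.14 to 0.43 and Mafk -0.69 to 0.20. Further such ranges were, for E12.5 NP against E12.5 UB, Jund -0.22 to 0.060, and for iSP against iNP, Jund -0.035 to 0.23, and for the NP minus UB contrast, Fosb -0.35 to 0.0027. Apart from Maff for iNP against E12.5 NP and Fosb for E12.5 SP against E11.5 SP, each called on the turned side without library 1, every value in this paragraph missed the threshold on the turned side or was not called with all libraries. Depth limits Fosl1 alone among the members.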
